A study of Mus musculus with 12 samples.

Results

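Transcripts of 8 heat-shock chaperone genes were followed through the oocyte-to-embryo transition of mice with and without Pabpn1l. The genes were Hspb1, Hspa5, Hsph1, Hspa8, Hsp90aa1, Hsp90ab1, Hspd1 and Hspe1, taken by name from the deposited table, which held all 8 among its 11298 complete entries. The 12 libraries formed 6 groups of 2: KO GV, WT GV, KO 1-cell, WT 1-cell, KO 2-cell and WT 2-cell. KO stands for the labels' Pabpn1l knockout and WT for their Pabpn1l wild type, all on a C57BL/6 background, and GV for oocytes arrested at the germinal vesicle stage. Each library was made by Smart-seq2, an oligo-dT primed full-length method, from 10 oocytes taken in vivo or 10 embryos grown in KSOM medium. Levels here are thus of RNA primed at its poly(A) tail, and tail length was not measured. A change in mRNA amount and a change in priming at the tail cannot be told apart. The labels give neither the age of the mice, nor the knockout allele, nor whether KO names the genotype of the mother, the embryo or both. Nor is it stated whether the libraries of 1 group represent different mice, and p-values here therefore describe library-to-library spread, which may be technical.

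Chaperones are proteins that bind other proteins while they fold, assemble or are refolded after damage. HSP70 chaperones hold short unfolded stretches and release them on exchange of ADP for ATP, HSP90 chaperones act on nearly folded clients such as kinases, and small heat-shock proteins hold unfolded proteins without using ATP. A fully grown oocyte stores such mRNAs, most maternal mRNA is then degraded after fertilisation, and the mouse embryonic genome becomes broadly active by the 2-cell stage. PABPN1L is an oocyte and early-embryo relative of the nuclear poly(A)-binding protein, and the study asks what its loss does to mRNA levels over this transition.

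The inducible members of the family are known for heat-shock elements, at which heat-shock factor 1 binds, and Hspa5 for ER stress response elements. RefSeq promoter windows on the GRCm38.p6 assembly, from 250 bases before to 50 bases after a transcript start, were at hand for 5 of the 8 genes (Hspa5, Hspb1, Hspd1, Hspe1 and Hsph1, 7 windows). Of these, 4 are printed 5′ to 3′ on the coding strand. In the 2-cell comparison described further on, Hsph1, Hspb1 and Hspa5 were lower in KO than in WT embryos. Hspe1 had the opposite sign there without passing the test on either scale. Capitals mark the fixed letters of 2-unit heat-shock elements (GAANNTTC or TTCNNGAA, searched on both strands) in Hspe1, Hsph1 and Hspb1, and of the ER stress response element (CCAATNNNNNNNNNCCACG or its reverse complement) in Hspa5. The Hspe1 window lies at chr1:55087898-55088197 on the plus strand, the Hsph1 window at chr5:149636287-149636586 on the minus strand, the Hspb1 window at chr5:135887669-135887968 on the plus strand and the Hspa5 window at chr2:34771840-34772139 on the plus strand.
Hspe1: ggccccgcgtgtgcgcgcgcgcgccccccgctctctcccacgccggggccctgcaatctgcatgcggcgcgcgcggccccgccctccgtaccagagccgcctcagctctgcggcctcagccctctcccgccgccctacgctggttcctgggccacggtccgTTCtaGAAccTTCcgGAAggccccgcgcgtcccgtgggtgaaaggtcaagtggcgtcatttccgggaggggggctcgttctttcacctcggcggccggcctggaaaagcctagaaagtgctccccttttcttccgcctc
Hsph1: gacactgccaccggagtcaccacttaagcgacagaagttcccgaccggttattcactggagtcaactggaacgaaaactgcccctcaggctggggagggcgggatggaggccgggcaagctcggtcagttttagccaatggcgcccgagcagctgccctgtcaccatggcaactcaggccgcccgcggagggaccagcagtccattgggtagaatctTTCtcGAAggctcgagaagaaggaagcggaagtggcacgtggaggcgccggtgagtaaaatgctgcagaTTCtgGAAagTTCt
Hspb1: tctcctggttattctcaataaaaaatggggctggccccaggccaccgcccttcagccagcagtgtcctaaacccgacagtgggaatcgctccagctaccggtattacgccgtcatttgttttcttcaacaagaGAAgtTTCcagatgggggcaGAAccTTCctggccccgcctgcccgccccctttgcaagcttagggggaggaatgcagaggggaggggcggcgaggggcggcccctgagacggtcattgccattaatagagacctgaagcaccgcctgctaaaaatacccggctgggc
Hspa5: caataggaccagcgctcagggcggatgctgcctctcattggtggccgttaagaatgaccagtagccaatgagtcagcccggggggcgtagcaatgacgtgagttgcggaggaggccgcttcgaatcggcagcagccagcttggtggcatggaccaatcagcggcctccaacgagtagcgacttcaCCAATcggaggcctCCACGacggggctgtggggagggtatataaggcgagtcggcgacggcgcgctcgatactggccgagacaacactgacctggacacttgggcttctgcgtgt

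Hspe1 and Hspd1 lie head to head, and the Hspe1 window shares 285 bases with an Hspd1 window on the opposite strand at chr1:55087883-55088182. In those shared bases, overlapping 2-unit matches join into 3-unit elements (GAANNTTCNNGAA or TTCNNGAANNTTC), the first of which begins 89 bases before the Hspe1 start. In the printed Hsph1 window a 3-unit element begins 36 bases after the start and a further 2-unit match 33 bases before it. Hspb1 has 2-unit matches beginning 117 and 97 bases before its start and no 3-unit match in this window. In Hspa5 the ER stress response element begins 65 bases before the start. Over all 32851 windows of the table, 15.1% held a 2-unit match, 0.603% a 3-unit match and 0.119% an ER stress response element. These matches describe letters and were not tested as binding sites.

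The authors' values are FPKM, fragments per kilobase of transcript scaled to the mapped fragments of a library, so levels can be set side by side between genes. No value lies below 1 FPKM, and a value of 1 FPKM is called the floor. The 8 embryo columns are 6-digit FPKM multiplied by 1 factor per library, which is 1 in the oocyte libraries. At the 1-cell stage it was 0.432 and 0.552 for the KO libraries, against 0.269 and 0.212 for the WT libraries. At the 2-cell stage it was 0.13 and 0.121 for KO, against 0.116 and 0.123 for WT. What the factor rests on is not given in the sources used here. Counts of called genes are therefore given on both scales, as deposited and before the factor. Some values of single genes are given on 1 scale only. Totals before the factor ran from 413054 to 605495 FPKM over the 12 libraries, and read depth is unknown. Pabpn1l itself held 7.23 and 4.98 FPKM in KO GV oocytes, against 220 and 204 FPKM in WT GV oocytes, and 2.57 and 4.55 FPKM in KO 1-cell embryos, against 16.4 and 12.2 FPKM in WT 1-cell embryos. At the 2-cell stage it lay between 1 and 1.9 FPKM in all 4 libraries, so it checks no label there. All 8 oocyte markers were above the floor in every GV library, with sums of 13847 to 15595 FPKM in KO GV oocytes, against 14202 to 14580 FPKM in WT GV oocytes. Of 11 cumulus and granulosa cell markers 5 were in the table, with sums of 74.0 to 86.4 FPKM in KO GV oocytes, against 74.3 to 80.9 FPKM in WT GV oocytes. Of 12 markers of 2-cell embryos 6 were in the table, and their summed level was 10.8 to 16.0 FPKM in KO 2-cell embryos, against 74.1 to 76.4 FPKM in WT 2-cell embryos. Its largest part was Sp110, at 8.01 and 5.42 FPKM in KO 2-cell embryos, against 59.1 and 55.6 FPKM in WT 2-cell embryos. Sp110 was higher still in oocytes, at 402 and 342 FPKM in KO GV oocytes, against 348 and 355 FPKM in WT GV oocytes, and the summed list reached 349 to 412 FPKM in KO GV oocytes, against 356 to 363 FPKM in WT GV oocytes. The sum is therefore no measure of the 2-cell stage, while Tdpoz1, Tdpoz4 and Tmem92 of the same list lay at 1 to 1.62 FPKM in KO 2-cell embryos, against 2.06 to 7.46 FPKM in WT 2-cell embryos. Eif1a of that list held 3.22 and 1.25 FPKM in KO 2-cell embryos, against 3.23 and 4.2 FPKM in WT 2-cell embryos, so its KO replicate 1 was near WT. Hspa1b, also listed, was at the floor in all 4 libraries of this stage. The part of these marker differences in the chaperone results of that stage was not tested. Each library pools whole oocytes or embryos, in which fewer cells and less RNA per cell cannot be told apart.

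The 8 chaperone mRNAs spanned a wide range of levels in GV oocytes. Hsp90aa1, the stress-inducible cytosolic HSP90, was the most abundant, at 1273 and 1545 FPKM in KO GV oocytes and 1091 and 1319 FPKM in WT GV oocytes. Hspa8, the constitutive cytosolic HSP70, held 700 and 619 FPKM in KO GV oocytes and 609 and 608 FPKM in WT GV oocytes. Hspe1, the HSP10 lid of the mitochondrial folding chamber, came next with 312 and 338 FPKM in KO GV oocytes and 280 and 324 FPKM in WT GV oocytes. Those 3 genes stood above the other 5 in all 4 oocyte libraries, and both KO libraries of Hspa8 lay above its WT libraries.
Hsp90ab1, the constitutive cytosolic HSP90, held 153 and 141 FPKM in KO GV oocytes and 156 and 140 FPKM in WT GV oocytes. Hspa5, the HSP70 of the endoplasmic reticulum also called BiP, held 99.8 and 89.5 FPKM in KO GV oocytes and 95.7 and 87.7 FPKM in WT GV oocytes. Hsph1, an HSP110 that serves HSP70 as a nucleotide exchange factor, held 73.7 and 78.1 FPKM in KO GV oocytes and 65.5 and 62.1 FPKM in WT GV oocytes. Of these, only Hsph1 had KO libraries that both lay above both WT libraries.
Hspd1, the mitochondrial HSP60 whose folding chamber Hspe1 closes, held 50.9 and 40.9 FPKM in KO GV oocytes and 50.8 and 47.7 FPKM in WT GV oocytes. Hspb1, a small heat-shock protein also called HSP25 in mice, was the lowest, at 15.6 and 17.6 FPKM in KO GV oocytes and 11.8 and 9.3 FPKM in WT GV oocytes. Its KO libraries also both lay above its WT libraries. With 2 libraries a group such separation can also arise between like groups, and its share over all genes was not counted. Here and below, lack of overlap describes the libraries and is not a test.

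No chaperone passed the test between KO GV and WT GV oocytes. The test was limma on log2(FPKM + 1) over all 11298 genes and all 12 libraries, with Benjamini-Hochberg adjustment, and a gene is called at an adjusted p under 0.05. Counts were 0 of 8 called higher and 0 lower, against 0.584% higher and 1.04% lower over the table. Before the factor the counts were again 0 and 0 of 8, against background shares of 0.876% higher and 1.69% lower. As deposited 0 of 8 passed even an unadjusted p of 0.05, which 985 genes of the table did. The nearest was Hspb1, whose KO mean of 16.6 ± 1.41 FPKM was 1.57 times the WT mean of 10.6 ± 1.79 FPKM (SD, n = 2 each; log2 fold change 0.61 ± 0.29 SE, limma adjusted p = 0.666). The median log2 difference was 0.11 over the 8 genes and −0.02 over all genes. Quantile normalization, which forces 1 distribution on all libraries, also left the 8 genes uncalled here.

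**Figure D1:**
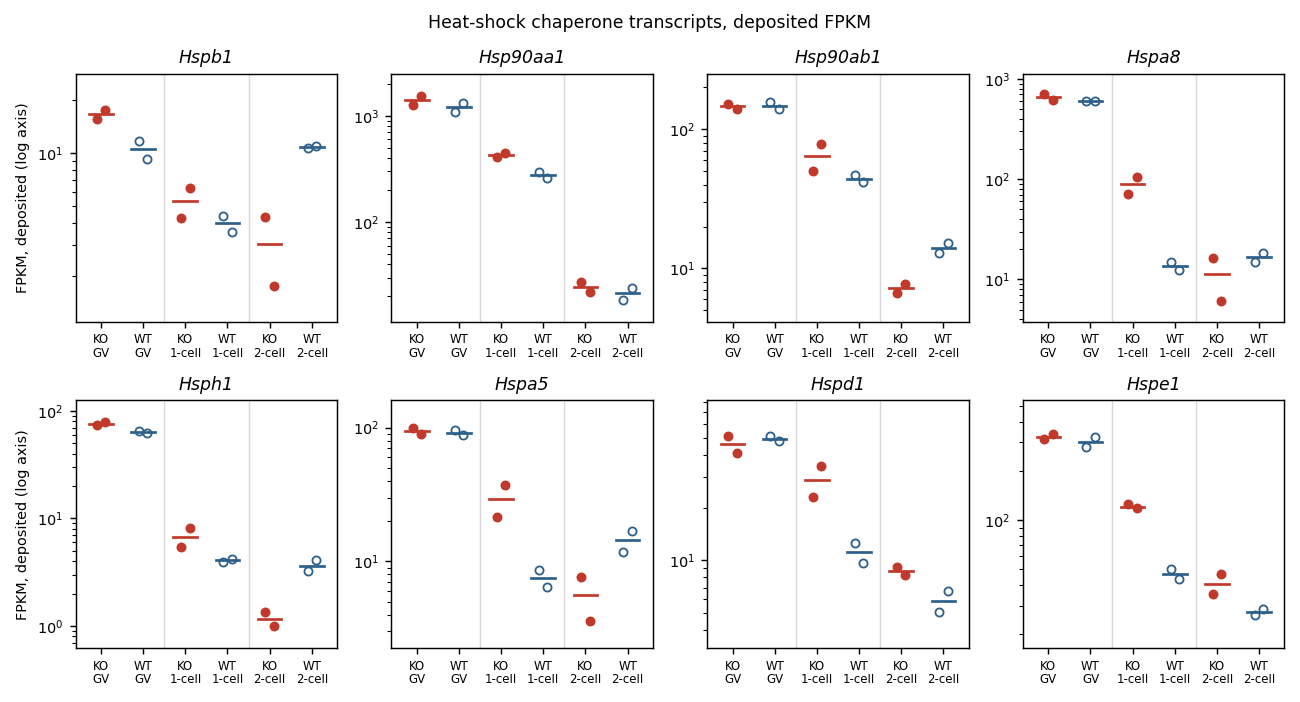
Deposited FPKM (log axis, 1 panel per gene) of the 8 chaperones in each library. Filled points are KO and open points WT libraries, bars are the mean of 2 libraries. The lowest point is the Hsph1 value at the floor of 1 FPKM in KO 2-cell embryos, and each panel has its own range.

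At the 1-cell stage, 6 of the 8 chaperones were called higher in KO than in WT embryos as deposited and 0 were called lower. Over all genes 52.7% were called higher and 0.0974% lower on this scale, so the count stands against a table that moved as a whole. Over the 6227 genes above the floor, the median KO to WT log2 ratio at this stage was 1.05 as deposited and 0.02 before the factor. Before the factor 1 chaperone was called higher and 0 lower, against 7.36% higher and 2.26% lower over the table. The median over the 8 genes was 0.96 as deposited, where that over all genes was 0.57, and 0.00 before the factor, as over all genes.

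Hspa8 was the chaperone that was called on both scales. As deposited it held 71.4 and 106 FPKM in KO 1-cell embryos, against 14.8 and 12.3 FPKM in WT 1-cell embryos. Before the factor it held 165 and 193 FPKM in KO 1-cell embryos, against 54.9 and 57.9 FPKM in WT 1-cell embryos. Both KO libraries lay well above both WT libraries on either scale, and the ratio of means was 6.56 as deposited and 3.17 before the factor. The log2 fold change was 2.61 ± 0.37 (SE) as deposited (limma adjusted p = 0.000729) and 1.65 ± 0.35 before the factor (limma adjusted p = 0.0219). It was the largest of the 8 differences on both scales. Hspa5, Hspe1 and Hspd1 also lay above the deposited median shift of 1.05, and Hsp90aa1 and Hsph1 below it.

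Hspa5 was next in size, with 21.6 and 37.2 FPKM in KO 1-cell embryos, against 8.59 and 6.42 FPKM in WT 1-cell embryos as deposited. Its log2 fold change was 1.80 ± 0.34 (limma adjusted p = 0.00268). Before the factor it held 50.1 and 67.5 FPKM in KO 1-cell embryos, against 31.9 and 30.2 FPKM in WT 1-cell embryos. The KO libraries lay above the WT libraries on both scales, yet the difference before the factor did not pass (0.88 ± 0.30, limma adjusted p = 0.127).

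The mitochondrial pair Hspd1 and Hspe1 had the same ratio of means as deposited, 2.58. Hspd1 held 23.0 and 34.3 FPKM in KO 1-cell embryos, against 12.5 and 9.73 FPKM in WT 1-cell embryos (log2 fold change 1.27 ± 0.22, limma adjusted p = 0.00201). Hspe1 held 125 and 118 FPKM in KO 1-cell embryos, against 50.1 and 43.6 FPKM in WT 1-cell embryos (1.35 ± 0.17, limma adjusted p = 0.000426). Neither pair of groups overlapped. Before the factor neither gene passed, at 0.31 for Hspd1 (limma adjusted p = 0.325) and 0.34 for Hspe1 (limma adjusted p = 0.465), and their ratios of means were 1.25 and 1.28. By symbols marked ps, RefSeq names 5 pseudogenes of Hspd1 and 6 of Hspe1. How the authors' counting shared reads with them is unknown, so the levels of both carry that uncertainty. Pseudogenes under other names were not counted, so the other members, Hspa8 included, may carry it too.

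The cytosolic HSP90 genes and Hsph1 changed direction with the scale. Hsp90aa1 held 411 and 447 FPKM in KO 1-cell embryos, against 293 and 258 FPKM in WT 1-cell embryos as deposited (log2 fold change 0.64 ± 0.20, limma adjusted p = 0.0243), and 952 and 810 FPKM in KO, against 1087 and 1215 FPKM in WT before the factor (−0.39, limma adjusted p = 0.285). Hsph1 held 5.47 and 8.06 FPKM in KO 1-cell embryos, against 3.96 and 4.22 FPKM in WT 1-cell embryos as deposited (0.59 ± 0.19, limma adjusted p = 0.0252), and 12.7 and 14.6 FPKM in KO, against 14.7 and 19.9 FPKM in WT before the factor (−0.31, limma adjusted p = 0.406). For both genes the KO libraries lay above the WT libraries as deposited and below them before the factor, and the sign was negative with quantile normalization too (−0.46 for Hsp90aa1 and −0.38 for Hsph1).
Hsp90ab1 held 50.4 and 78.0 FPKM in KO 1-cell embryos, against 46.8 and 41.6 FPKM in WT 1-cell embryos, and was not called on either scale (0.50, limma adjusted p = 0.0743, and before the factor −0.52, limma adjusted p = 0.0789), but was called lower with quantile normalization (−0.70, limma adjusted p = 0.00969). Hspb1 held 4.28 and 6.38 FPKM in KO 1-cell embryos, against 4.39 and 3.58 FPKM in WT 1-cell embryos. Its groups overlapped as deposited. Before the factor it held 9.9 and 11.6 FPKM in KO 1-cell embryos, against 16.3 and 16.9 FPKM in WT 1-cell embryos, lower in KO without overlap. It was not called on either scale (0.33, limma adjusted p = 0.43, and before the factor −0.59, limma adjusted p = 0.388).
The deposited calls of 2 genes rested on single libraries. The Hsph1 call ended without KO 1-cell replicate 2 (0.35, limma adjusted p = 0.155), WT 1-cell replicate 1 (0.55, limma adjusted p = 0.094) or WT 1-cell replicate 2 (0.63, limma adjusted p = 0.0799), and the Hsp90aa1 call without KO 1-cell replicate 2 (0.58, limma adjusted p = 0.118) or WT 1-cell replicate 2 (0.55, limma adjusted p = 0.114). In turn, Hsp90ab1 became called higher without KO 1-cell replicate 1 (0.81, limma adjusted p = 0.00595).

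At the 2-cell stage the chaperones split by direction, and the split was alike on both scales. Hspb1, Hspa5, Hsph1 and Hsp90ab1 were called lower in KO than in WT 2-cell embryos on both. As deposited the counts were 0 of 8 higher and 4 lower, where 7.56% of the table's genes were called higher and 12% lower. Before the factor they were 1 higher (Hspd1) and 4 lower, where 10.6% were called higher and 17.8% lower. The median log2 difference over the 8 genes was −0.77 as deposited and −0.91 before the factor, and that over all genes was 0.00 on both scales, where many genes sat at the floor. From 45.3% to 58.1% of the table's genes were at the floor in a 2-cell library, and genes at the floor in both genotypes cannot be called. Of the 8 chaperones only Hsph1 had a value at the floor, so the shares over the table are not those of genes at like levels.

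Hspb1 had the largest deposited difference. It held 4.32 and 1.77 FPKM in KO 2-cell embryos, against 10.7 and 11 FPKM in WT 2-cell embryos. Before the factor it held 33.1 and 14.6 FPKM in KO 2-cell embryos, against 91.7 and 89.6 FPKM in WT 2-cell embryos. Both KO libraries lay below both WT libraries, which nearly coincided, while the KO libraries stood apart from each other. The KO mean was 28.1% of the WT mean as deposited and 26.3% before the factor. Its log2 fold change was −1.62 ± 0.29 as deposited (limma adjusted p = 0.00422) and −1.99 ± 0.31 before the factor (limma adjusted p = 0.00157).

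Hsph1, the HSP110 exchange factor, held 1.35 and 1.00 FPKM in KO 2-cell embryos, against 3.22 and 4.08 FPKM in WT 2-cell embryos, and the second KO value is the floor. Before the factor it held 10.4 FPKM and at most 8.25 FPKM in KO 2-cell embryos, against 27.7 and 33.2 FPKM in WT 2-cell embryos. The KO libraries lay below the WT libraries on both scales. The log2 fold change was −1.10 ± 0.19 as deposited (limma adjusted p = 0.00296) and −1.59 ± 0.17 before the factor (limma adjusted p = 0.000196), and its size depends on the floor.

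Hspa5 held 7.7 and 3.61 FPKM in KO 2-cell embryos, against 11.8 and 16.9 FPKM in WT 2-cell embryos. Its KO libraries lay below its WT libraries, so its direction was opposite to that at the 1-cell stage. The log2 fold change was −1.26 ± 0.34 as deposited (limma adjusted p = 0.0298) and −1.47 ± 0.30 before the factor (limma adjusted p = 0.00637). Hsp90ab1 held 6.65 and 7.74 FPKM in KO 2-cell embryos, against 13.0 and 15.2 FPKM in WT 2-cell embryos, again without overlap. Its log2 fold change was −0.88 ± 0.21 as deposited (limma adjusted p = 0.0161) and −1.03 ± 0.15 before the factor (limma adjusted p = 0.00124).

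The other 4 chaperones were not called as deposited. Hspa8, which stood out at the 1-cell stage, held 16.4 and 6.09 FPKM in KO 2-cell embryos, against 15 and 18.4 FPKM in WT 2-cell embryos. KO replicate 1 lay within the WT range as deposited and KO replicate 2 well below it (log2 fold change −0.67, limma adjusted p = 0.314, and before the factor −0.80, limma adjusted p = 0.146). Hsp90aa1 held 27.1 and 21.9 FPKM in KO 2-cell embryos, against 18.5 and 24.1 FPKM in WT 2-cell embryos, with overlap (0.20, limma adjusted p = 0.799, before the factor 0.13, limma adjusted p = 0.925, and −0.05 with quantile normalization).
The mitochondrial pair had the opposite sign. Hspd1 held 9.22 and 8.25 FPKM in KO 2-cell embryos, against 5.08 and 6.72 FPKM in WT 2-cell embryos, without overlap (0.50, limma adjusted p = 0.184, and before the factor 0.49 ± 0.15, limma adjusted p = 0.0411). Hspe1 held 35.4 and 46.5 FPKM in KO 2-cell embryos, against 26.4 and 28.4 FPKM in WT 2-cell embryos, also without overlap (0.55, limma adjusted p = 0.0547, and before the factor 0.49, limma adjusted p = 0.116). Their ratios of means as deposited were 1.48 and 1.49.
With 2 libraries a group these counts leaned on single libraries. They ranged from 1 to 5 called chaperones, with 1 called without WT 2-cell replicate 2 (Hsph1) and 2 without KO 2-cell replicate 2. The Hspb1 call ended without WT 2-cell replicate 2 (−1.60, limma adjusted p = 0.051). The Hspa5 call ended without KO 2-cell replicate 2 (−0.80, limma adjusted p = 0.218), WT 2-cell replicate 1 (−1.50, limma adjusted p = 0.0736), WT 2-cell replicate 2 (−1.01, limma adjusted p = 0.242) or any 1 of the 4 oocyte libraries (limma adjusted p = 0.0706 to 0.0784). The Hsp90ab1 call ended without KO 2-cell replicate 1 (−0.79, limma adjusted p = 0.101), KO 2-cell replicate 2 (−0.98, limma adjusted p = 0.0505) or WT 2-cell replicate 2 (−0.78, limma adjusted p = 0.117). In turn, Hspa8 became called without KO 2-cell replicate 1 (−1.31, limma adjusted p = 0.0139), and so did Hspe1 (0.74, limma adjusted p = 0.0265).

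**Figure D2:**
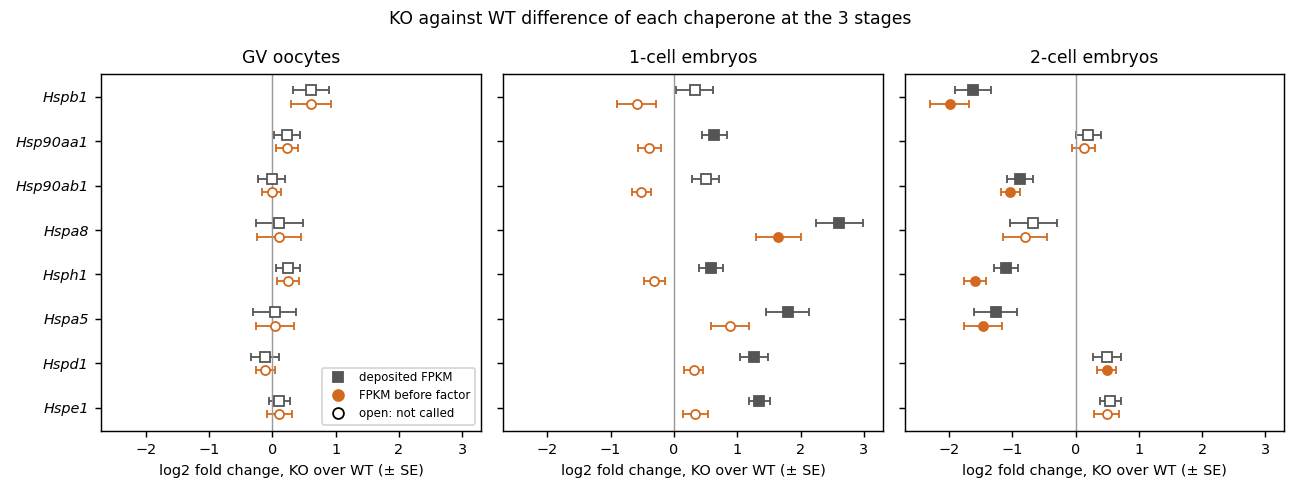
Log2 fold change of KO over WT (± SE, limma) of each chaperone in GV oocytes, 1-cell and 2-cell embryos, as deposited (squares) and before the library factor (circles). Filled symbols are called at an adjusted p under 0.05. In 1-cell embryos the scales lie apart and the sign flips for Hspb1, Hsp90aa1, Hsp90ab1 and Hsph1, whereas in 2-cell embryos they lie close together.

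Levels were then compared between stages within each genotype. In WT 1-cell embryos against WT GV oocytes, 0 of 8 were called higher and all 8 lower as deposited, against 0.0354% higher and 85.8% lower over the table. Before the factor 0 were called higher and 3 lower, against 8.67% higher and 21.1% lower over the table. Those 3 were Hspa8, Hsph1 and Hspa5, and Hspb1 (0.61) and Hsp90ab1 (0.32) had a positive sign on this scale without passing the test. With quantile normalization the split was 3 called higher and 3 lower, the 3 higher being Hspb1 (0.90, limma adjusted p = 0.0172), Hsp90ab1 (0.89, limma adjusted p = 0.000675) and Hspd1 (0.37, limma adjusted p = 0.036).
Before the factor Hspa8 held 54.9 and 57.9 FPKM in WT 1-cell embryos, against 609 and 608 FPKM in WT GV oocytes. On that scale its 1-cell mean was 9.27% of its oocyte mean (log2 fold change −3.41 ± 0.37, limma adjusted p = 0.000535). Hsph1 held 14.7 and 19.9 FPKM in WT 1-cell embryos, against 65.5 and 62.1 FPKM in WT GV oocytes (−1.84 ± 0.16, limma adjusted p = 0.000218). Hspa5 held 31.9 and 30.2 FPKM in WT 1-cell embryos, against 95.7 and 87.7 FPKM in WT GV oocytes (−1.53 ± 0.32, limma adjusted p = 0.01). The 1-cell libraries lay below the oocyte libraries for all 3 genes. As deposited the WT 1-cell mean was 2.23% of the WT GV mean for Hspa8, 6.41% for Hsph1 and 8.18% for Hspa5. It was 22.8% for Hsp90aa1, which was called lower on that scale (−2.12 ± 0.20, limma adjusted p = 7.21e-06). By contrast Hsp90aa1 held 1087 and 1215 FPKM in WT 1-cell embryos before the factor, against 1091 and 1319 FPKM in WT GV oocytes, and these groups overlapped (−0.06, limma adjusted p = 1).

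In KO 1-cell embryos against KO GV oocytes, 0 of 8 were called higher and 8 lower as deposited, against 0.23% higher and 66.9% lower over the table. Before the factor 0 were called higher and 3 lower, where 6.83% were called higher and 16.1% lower, and the 3 were Hsph1, Hspa8 and Hsp90aa1. Before the factor Hspa8 held 165 and 193 FPKM in KO 1-cell embryos, against 700 and 619 FPKM in KO GV oocytes, or 27.2% (−1.88 ± 0.37, limma adjusted p = 0.0104). This share was larger than the 9.27% of WT, but the difference in change did not pass (1.53, limma adjusted p = 0.266). As deposited the Hspa8 shares were 13.5% in KO and 2.23% in WT. Before the factor Hsph1 held 12.7 and 14.6 FPKM in KO 1-cell embryos, against 73.7 and 78.1 FPKM in KO GV oocytes, or 18.0%, where WT 1-cell embryos were at 27.1%. On the same scale Hsp90aa1 was at 62.5% of its oocyte level in KO 1-cell embryos (−0.67 ± 0.17, limma adjusted p = 0.0294) and at 95.5% in WT 1-cell embryos. As deposited these shares were 8.92% in KO and 6.41% in WT for Hsph1, and 30.5% in KO and 22.8% in WT for Hsp90aa1. For neither gene did the difference in change pass before the factor (−0.56 for Hsph1, limma adjusted p = 0.405, and −0.61 for Hsp90aa1, limma adjusted p = 0.366). The difference in change between the genotypes was called for 4 chaperones as deposited, all less negative in KO (Hspa8, Hspa5, Hspd1 and Hspe1), and 0 the other way, where 38.7% and 0.859% of all genes were. Before the factor it was called for 0 of 8 in either direction, where 2.24% and 0.505% of all genes were. At an unadjusted p of 0.05 it passed for 5 of 8, where 1365 of 11298 genes did, and those 5 went both ways, with Hspa8 positive (1.53) and Hspb1, Hsph1, Hsp90aa1 and Hsp90ab1 negative.

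From the 1-cell to the 2-cell stage of WT embryos, measured levels of Hspb1, Hspa5, Hspa8 and Hsph1 rose before the factor and those of both HSP90 genes fell. In WT 2-cell against WT 1-cell embryos 4 of 8 were called higher and 2 lower on that scale, against 21.0% higher and 14.9% lower over the table. As deposited 1 was called higher and 4 lower, where 9.45% and 29.0% of all genes were. The count of 5 as deposited was 3 without WT 2-cell replicate 1.
Hspb1 was called higher on both scales. It held 91.7 and 89.6 FPKM in WT 2-cell embryos before the factor, against 16.3 and 16.9 FPKM in WT 1-cell embryos, a ratio of means of 5.47 (log2 fold change 2.38 ± 0.33, limma adjusted p = 0.0012). As deposited it held 10.7 and 11 FPKM in WT 2-cell embryos, against 4.39 and 3.58 FPKM in WT 1-cell embryos (1.25 ± 0.29, limma adjusted p = 0.0078), a call that ended without WT 2-cell replicate 1 (1.27) or replicate 2 (1.23). WT 2-cell embryos had its highest level of the 6 groups before the factor, above the oocytes as well.
Hspa5 held 101 and 138 FPKM in WT 2-cell embryos before the factor, against 31.9 and 30.2 FPKM in WT 1-cell embryos (1.90 ± 0.32, limma adjusted p = 0.00295). Hspa8 held 129 and 150 FPKM in WT 2-cell embryos, against 54.9 and 57.9 FPKM in WT 1-cell embryos (1.29 ± 0.37, limma adjusted p = 0.0319). Hsph1 held 27.7 and 33.2 FPKM in WT 2-cell embryos, against 14.7 and 19.9 FPKM in WT 1-cell embryos (0.79 ± 0.16, limma adjusted p = 0.00764). The 2-cell libraries lay above the 1-cell libraries for all 3. As deposited none of the 3 was called, and Hsph1 had the opposite sign (−0.14, limma adjusted p = 0.801).
Hsp90aa1 fell on both scales. It held 159 and 196 FPKM in WT 2-cell embryos before the factor, against 1087 and 1215 FPKM in WT 1-cell embryos, or 15.5% of the 1-cell level (−2.69 ± 0.17, limma adjusted p = 2.94e-05), and 7.74% as deposited. Hsp90ab1 held 112 and 124 FPKM in WT 2-cell embryos before the factor, against 174 and 196 FPKM in WT 1-cell embryos (−0.64 ± 0.14, limma adjusted p = 0.0107). On this scale the fall of the 2 HSP90 genes in WT was called between the 1-cell and 2-cell stages, and that of Hspa8, Hsph1 and Hspa5 between the oocyte and the 1-cell stage, and this difference in timing was not itself tested.

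In KO embryos none of those 4 genes was called higher at this step on either scale, but with quantile normalization Hspb1 was (1.07, limma adjusted p = 0.00665), as were Hspd1 (0.46, limma adjusted p = 0.0143) and Hspe1 (0.56, limma adjusted p = 0.0177). In KO 2-cell against KO 1-cell embryos 0 of 8 were called higher and 2 lower before the factor, against 9.91% higher and 15.4% lower over the table. As deposited 0 were called higher and 7 lower, where 0.646% and 60.7% were. Before the factor Hspa5 held 59.1 and 29.8 FPKM in KO 2-cell embryos, against 50.1 and 67.5 FPKM in KO 1-cell embryos, with overlap (−0.46, limma adjusted p = 0.468). Hspa8 held 126 and 50.3 FPKM in KO 2-cell embryos, against 165 and 193 FPKM in KO 1-cell embryos (−1.15, limma adjusted p = 0.0652). Hspb1 held 33.1 and 14.6 FPKM in KO 2-cell embryos, against 9.9 and 11.6 FPKM in KO 1-cell embryos, higher without overlap and uncalled (0.98, limma adjusted p = 0.0773). The 2 called lower were Hsp90aa1 (−2.17 ± 0.17, limma adjusted p = 0.000218) and Hsp90ab1 (−1.15 ± 0.14, limma adjusted p = 0.00137).
The genotypes differed in this change for 6 chaperones as deposited, each more negative in KO, and for 0 the other way, where 35.7% and 0.239% of all genes were called. Before the factor it was called for 3 (Hspa5, Hspa8 and Hsph1) and 0, where 15.8% and 5.91% of all genes were. The difference in log2 change before the factor was −2.36 ± 0.45 for Hspa5 (limma adjusted p = 0.0102), −2.44 ± 0.52 for Hspa8 (limma adjusted p = 0.0165) and −1.28 ± 0.23 for Hsph1 (limma adjusted p = 0.00812). With quantile normalization Hspa5 and Hspa8 were called too, Hsph1 just missed the threshold (−1.20, limma adjusted p = 0.0504) and Hspb1 was called (−1.16, limma adjusted p = 0.029). The WT 1-cell libraries enter both this difference and the one before it, and the KO 1-cell libraries do as well, so the 2 are not independent.

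**Figure D3:**
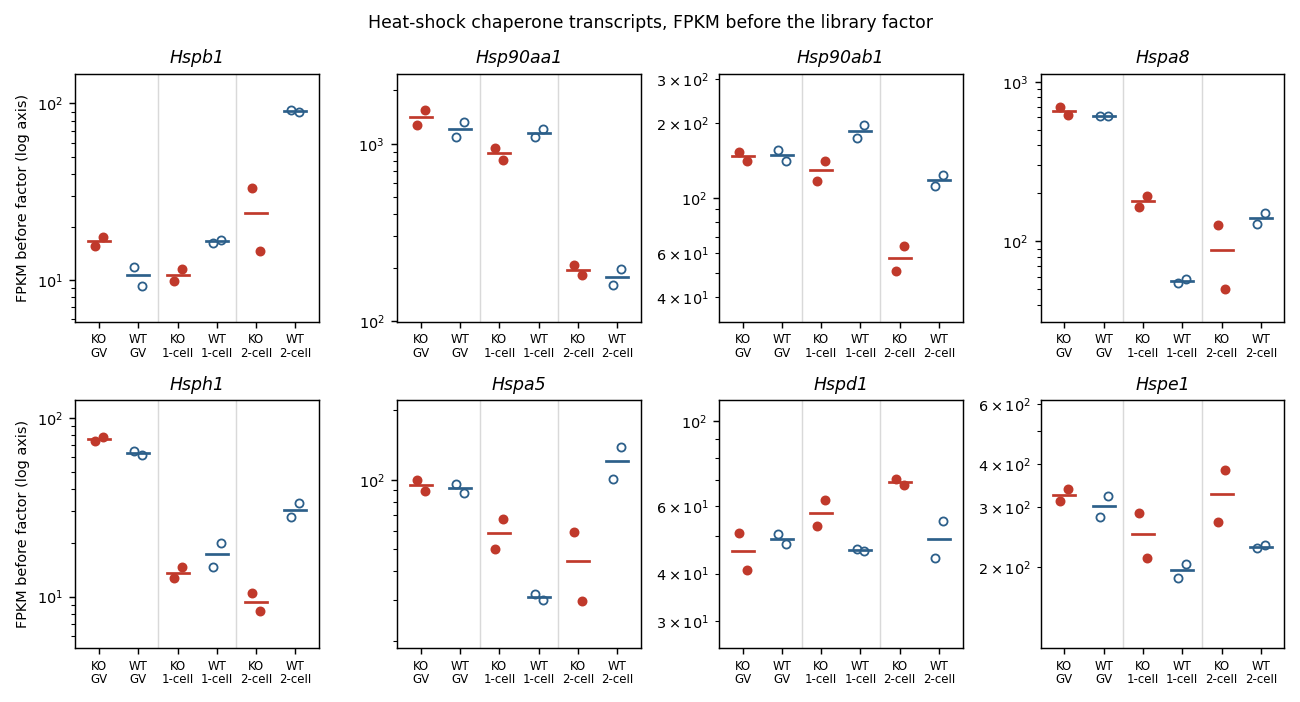
FPKM before the library factor (log axis, 1 panel per gene) of the 8 chaperones in each library. Filled points are KO and open points WT libraries, bars are the mean of 2 libraries, and the second Hsph1 value of KO 2-cell embryos is that library's floor of 8.25 FPKM. Hspb1 reaches 91.7 and 89.6 FPKM in WT 2-cell embryos, while Hspd1 lies between 40.9 and 70.8 FPKM in all 12 libraries.

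Across the 6 groups the members differed in shape, and the order of levels is given before the factor, as a description. Hspb1 was highest in WT 2-cell embryos, then came KO 2-cell embryos, KO GV oocytes and WT 1-cell embryos with overlapping neighbours, and KO 1-cell embryos and WT GV oocytes were last and overlapped. Hspa5 was also highest in WT 2-cell embryos, followed by the oocytes of both genotypes. At its low end KO 2-cell embryos overlapped with both KO 1-cell and WT 1-cell embryos, which did not overlap with each other. Hsph1 and Hspa8 ran from KO GV through WT GV oocytes downward, and Hsph1 ended at KO 2-cell embryos with no overlap between neighbours. Hsp90aa1 had KO GV oocytes, WT GV oocytes and WT 1-cell embryos together at the top and the 2-cell embryos of both genotypes together at the bottom. Hsp90ab1 was lowest in KO 2-cell embryos, apart from all other groups. Hspd1 was highest in KO 2-cell embryos, and Hspe1 was lowest in WT 1-cell embryos, while its other 5 groups overlapped from neighbour to neighbour. The closest pair among the 8 was Hspd1 and Hspe1, whose centred log2 group means differed by a root mean square of 0.28, and the next was Hspa5 and Hspe1 at 0.64. This is a description over 6 group means with no test. By the same measure over 3128 genes, the closest profile to each member belonged to Taf1d for Hspb1 (0.21), Srsf2 for Hspa5 (0.13), Meaf6 for Hsph1 (0.13) and Rpl27 for Hspa8 (0.20). For the others it was Spag7 for Hsp90aa1 (0.15), Rln3 for Hsp90ab1 (0.09), Ppapdc1b for Hspd1 (0.06) and Acd for Hspe1 (0.07). Taf1d, a subunit of an RNA polymerase I factor, averaged 66.1 FPKM in KO 2-cell embryos, against 241 FPKM in WT 2-cell embryos.

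A wider set of 105 chaperone, co-chaperone and stress-response genes in 7 lists, of which 89 were in the table, gives the setting of the 8. In GV oocytes 0 of the 89 were called in either direction. In 1-cell embryos 58 (65.2%) were called higher in KO and 0 lower as deposited, where 52.7% and 0.0974% of all genes were. Before the factor 13 (14.6%) were called higher and 0 lower, where 7.36% and 2.26% of all genes were. In 2-cell embryos 10 (11.2%) were called higher and 22 (24.7%) lower as deposited, where 7.56% and 12% of all genes were. Before the factor these were 16 (18.0%) and 29 (32.6%), where 10.6% and 17.8% of all genes were. The counts of single lists that follow are to be read against the same shares. Those shares include genes at the floor, which were 24.3% to 43.7% of the table in a 1-cell library and 45.3% to 58.1% in a 2-cell library. Genes at like levels were not compared. Median log2 differences over the 89 were 0.89 at the 1-cell stage and 0.00 at the 2-cell stage as deposited.

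The ER chaperone and unfolded protein response list, to which Hspa5 is related by function, had 10 of 22 genes called lower in KO 2-cell embryos and 0 higher as deposited, and 11 lower and 1 higher before the factor. Its median log2 difference was −0.22 as deposited. Pdia3, a disulfide isomerase that works with calnexin, held 1.12 and 1.12 FPKM in KO 2-cell embryos, against 6.55 and 9.53 FPKM in WT 2-cell embryos (log2 fold change −2.07 ± 0.22, limma adjusted p = 0.000209). P4hb, protein disulfide isomerase itself, held 2.45 and 1.77 FPKM in KO 2-cell embryos, against 9.2 and 12.8 FPKM in WT 2-cell embryos (−1.94 ± 0.28, limma adjusted p = 0.0012). KO libraries lay below WT libraries for both, which largely follows from naming genes with large called changes. The KO values of Pdia3 lay near the floor, so the size of its change depends on the floor. At the 1-cell stage 16 of the 22 were called higher as deposited, where 52.7% of all genes were, and 2 before the factor, where 7.36% were, so that the count of 2 is near the table's share, and none was called lower. These 2 were Pdia6, another disulfide isomerase, and Sdf2l1, an ER-stress-induced partner of BiP. Pdia6 held 22.4 and 40.7 FPKM in KO 1-cell embryos, against 7.52 and 6.01 FPKM in WT 1-cell embryos (2.01 ± 0.29, limma adjusted p = 0.000791).

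The list of HSP70 exchange factors and HSP90 co-chaperones had 7 of 19 members called lower and 2 higher in KO 2-cell embryos as deposited, and 9 and 3 before the factor. Stip1, which links HSP70 to HSP90, held 2.64 and 3.72 FPKM in KO 2-cell embryos, against 11 and 10.8 FPKM in WT 2-cell embryos (−1.52 ± 0.31, limma adjusted p = 0.0079). Bag5, a BAG-domain partner of HSP70, held 1.06 and 1.00 FPKM in KO 2-cell embryos, against 4.66 and 4.72 FPKM in WT 2-cell embryos (−1.49 ± 0.24, limma adjusted p = 0.00249). Both were near or at the floor in KO. Of the other HSP70 and HSP110 genes, 1 of 9 was called lower as deposited and 0 higher, and 2 lower and 0 higher before the factor. The gene called as deposited was Hspa14, a ribosome-associated HSP70, with 2.92 and 1.9 FPKM in KO 2-cell embryos, against 8.95 and 9.14 FPKM in WT 2-cell embryos (−1.58 ± 0.24, limma adjusted p = 0.00161).

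The J-domain co-chaperones of the cytosol, which stimulate the ATPase of HSP70, had 5 of 17 members higher and 1 lower past the test in KO 2-cell embryos as deposited, and 7 and 3 before the factor. Dnajb4 held 9.79 and 13.9 FPKM in KO 2-cell embryos, against 3.23 and 3.06 FPKM in WT 2-cell embryos (1.62 ± 0.22, limma adjusted p = 0.001). Dnajb14, a J-domain protein anchored in the ER membrane and the 1 called lower as deposited, sat at the floor in both KO 2-cell libraries, against 7.73 and 6.95 FPKM in WT 2-cell embryos (limma adjusted p = 7e-06). In 1-cell embryos 13 of the 17 were called higher as deposited and 4 before the factor, against the same 52.7% and 7.36%. Dnaja1, a main J-domain partner of Hspa8, held 95.9 and 118 FPKM in KO 1-cell embryos, against 13.9 and 9.48 FPKM in WT 1-cell embryos, and was called on both scales (3.10 ± 0.21, limma adjusted p = 2.15e-05, and before the factor 2.16 ± 0.15, limma adjusted p = 0.000161). Its difference was larger than that of Hspa8 on both scales, though the 2 were not tested against each other. Dnaja1 was named for the largest change of its list at this stage, which favours the larger value.

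In the list of mitochondrial chaperones and proteases, 2 of 13 were higher and 3 lower past the test in KO 2-cell embryos as deposited, and 3 and 4 before the factor. Dnajc19, a J-domain protein of the mitochondrial inner membrane, held 13.2 and 18.2 FPKM in KO 2-cell embryos, against 2.11 and 2.51 FPKM in WT 2-cell embryos (2.32 ± 0.17, limma adjusted p = 2.45e-05). Dnajc15, another inner-membrane J-domain protein, held 1.56 and 1.49 FPKM in KO 2-cell embryos, against 8.29 and 13.0 FPKM in WT 2-cell embryos (−2.18 ± 0.27, limma adjusted p = 0.000576). These related genes moved in opposite directions. Both were named for large called changes, so the lack of overlap of their libraries is no further evidence. The KO values of Dnajc15 lay near the floor, which limits the size of its change. Of the 4 other small heat-shock genes in the table, 1 was called, Hspb11, which is named for the family but encodes a subunit of the intraflagellar transport machinery. It held 10.2 and 9.54 FPKM in KO 2-cell embryos and was at the floor in both WT 2-cell libraries. Of the 5 heat-shock factor genes and partners, 0 were called at the 2-cell stage as deposited and 1 higher before the factor. Hsf1, the factor that binds heat-shock elements, is given although the rule for named genes did not select it. It held 8.95 and 8.48 FPKM in KO 2-cell embryos, against 12.3 and 12.7 FPKM in WT 2-cell embryos. This list had 0 genes called lower at this stage on either scale, so the Hsf1 difference did not pass the test. Hsf5 went the other way, at 1.57 and 1.53 FPKM in KO 2-cell embryos and at the floor in both WT 2-cell libraries. Hspa1b, an inducible HSP70 known as an early transcript of mouse embryos, was at the floor in 11 of 12 libraries.

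**Figure D4:**
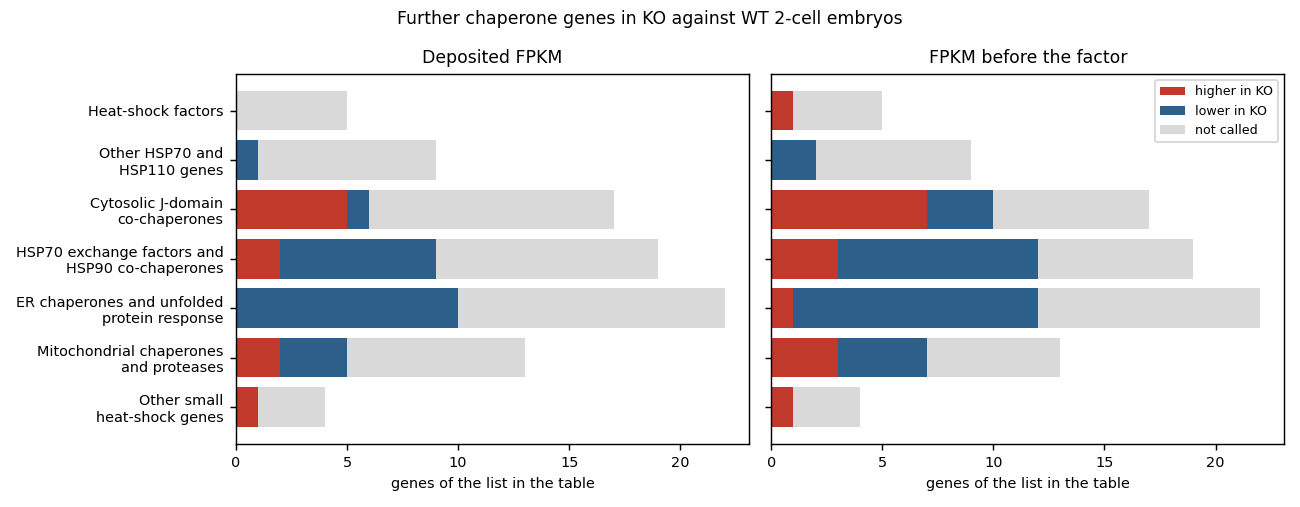
Number of genes of each further chaperone list called higher (red) or lower (blue) in KO than in WT 2-cell embryos, or not called (grey), as deposited (left) and before the library factor (right). The ER list has 10 genes called lower as deposited and 11 before the factor.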

How the data were processed

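Polyadenylated RNA of 12 Smart-seq2 libraries was analysed from 1 deposited table of FPKM values. The authors made these FPKM with TopHat2 2.1.1, Cufflinks 2.2.1 and the genome build mm9, per the submitters' processing notes. The last entry had 1 of 12 values and was left out, which left 11298 genes. Column names gave each sample, and no column was left unused. FPKM keep no read counts, so no counting intervals are given and the number of libraries limits the precision.

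In each embryo column, 100% of the values above the floor of 1 FPKM were 6-digit FPKM times 1 factor with 9 decimals. The deposited FPKM are the primary scale. For values divided by the factor, the highest floor was applied to all libraries compared, 4.71 FPKM at the 1-cell stage, 8.61 FPKM at the 2-cell stage, and 8.61 FPKM in comparisons between stages.

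Values were taken as log2(FPKM + 1), which understates the change of low genes, and modelled by group means over all 12 libraries (limma 3.58.1, R 4.3.3, with a variance trend). Two-sided p-values were adjusted over all genes (Benjamini-Hochberg) per contrast and called under 0.05. The contrasts compared KO with WT per stage, the steps between stages in each genotype, and the differences of steps between genotypes. The fit was run on simulated data in which a limited set of genes changed. That run did not cover a shift of the whole table like that at the 1-cell stage. Alternatives were the scale before the factor, quantile normalization, a pseudocount of 0.1, a minimum mean of 5 FPKM, no variance trend, a replicate block, and leaving out each library.

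The 8 members, the 7 further lists, the markers and the motifs were chosen with earlier results of these data known. Named from the further lists were up to 2 genes per list and KO against WT contrast, those with the largest log2 fold change among genes called in 1 direction on both scales. The gene most like a member had the smallest root mean square difference of centred log2 group means before the factor. Promoters came from RefSeq (GRCm38.p6), were matched by symbol, and were not joined to the mm9 values by coordinates.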

Additional observations from a re-analysis of the deposited data

Results flagged for a closer look

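For 10 differences between genotypes in the change from one stage to the next, the test of the difference itself was called as deposited. All values are the KO change minus the WT change in log2(FPKM + 1), with limma adjusted p. From the GV to the 1-cell stage they were 2.49 for Hspa8 (adjusted p = 0.00876), 1.76 for Hspa5 (adjusted p = 0.0221), 1.38 for Hspd1 (adjusted p = 0.0122) and 1.25 for Hspe1 (adjusted p = 0.00671). Before the library factor none of these 4 was called (1.53, 0.84, 0.42 and 0.23). The deposited call of Hspa5 ended without any 1 of the 4 oocyte libraries, KO 1-cell replicate 2 or WT 1-cell replicate 2 (1.38 to 1.84), and that of Hspd1 without WT 1-cell replicate 2 (1.22).

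From the 1-cell to the 2-cell stage they were −3.27 for Hspa8 (adjusted p = 0.00173), −3.06 for Hspa5 (adjusted p = 0.00163), −1.95 for Hspb1 (adjusted p = 0.00715), −1.69 for Hsph1 (adjusted p = 0.00158), −1.38 for Hsp90ab1 (adjusted p = 0.00725) and −0.81 for Hspe1 (adjusted p = 0.0304). Before the factor Hspa8 (−2.44), Hspa5 (−2.36) and Hsph1 (−1.28) were called and Hspb1 (−1.40), Hsp90ab1 (−0.51) and Hspe1 (0.15) were not. The deposited call of Hspe1 ended without either KO 1-cell library, WT 1-cell replicate 2, KO 2-cell replicate 1 or either WT 2-cell library (−0.86 to −0.61). The library factors moved with genotype at the 1-cell stage, at 0.432 and 0.552 in KO, against 0.269 and 0.212 in WT libraries.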

How the results depend on the processing

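The numbers of chaperones called as deposited kept within 1.5 times under a pseudocount of 0.1, a minimum mean of 5 FPKM, no variance trend and the replicate block. Whether equal replicate numbers pair the libraries is not known. Correlations of deviations between equally numbered libraries were over 0.1 in 5 of 15 group pairs (−0.40 to 0.17), which cannot settle it with 2 libraries a group. The block kept the side of the threshold in 72 of 72 chaperone results and, within 1.5 times, 9 of 9 counts. Scaling moved counts, and the cause was not tested. Before the factor they became 1 (6 as deposited) for KO against WT 1-cell embryos, 3 (8) for WT 1-cell against WT GV, 3 (8) for KO 1-cell against KO GV, 2 (7) for KO 2-cell against KO 1-cell, and 0 (4) and 3 (6) for the genotype differences of the first and second step. With quantile normalization they became 2 for KO against WT 1-cell embryos (Hspa8 higher, Hsp90ab1 lower), 4 for KO 1-cell against KO GV (Hspd1 higher, 3 lower), and 0 and 3 for the genotype differences, the 3 being Hspa5, Hspa8 and Hspb1 in place of Hsph1. Other counts then split into 3 higher and 3 lower for WT 1-cell against WT GV and for KO 2-cell against KO 1-cell, where none was called higher as deposited.

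Signs turned before the factor in KO against WT 1-cell embryos (Hspb1 −0.59, Hsph1 −0.31, Hsp90aa1 −0.39, Hsp90ab1 −0.52), WT 1-cell against WT GV (Hspb1 0.61, Hsp90ab1 0.32), WT 2-cell against WT 1-cell (Hsph1 0.79, Hspd1 0.09, Hspe1 0.23), KO 1-cell against KO GV (Hspd1 0.33), KO 2-cell against KO 1-cell (Hspb1 0.98, Hspd1 0.27, Hspe1 0.38), the first genotype difference (Hsph1 −0.56, Hsp90aa1 −0.61, Hsp90ab1 −0.51) and the second (Hsp90aa1 0.52, Hspd1 0.18, Hspe1 0.15). With quantile normalization they turned in KO against WT 1-cell (Hspb1 −0.59, Hsph1 −0.38, Hsp90aa1 −0.46, Hsp90ab1 −0.70) and 2-cell embryos (Hsp90aa1 −0.05), WT 1-cell against WT GV (Hspb1 0.90, Hsp90aa1 0.03, Hsp90ab1 0.89, Hspd1 0.37), WT 2-cell against WT 1-cell (Hsph1 0.51, Hspe1 0.37), KO 1-cell against KO GV (Hsp90ab1 0.22, Hspd1 0.60), KO 2-cell against KO 1-cell (Hspb1 1.07, Hspd1 0.46, Hspe1 0.56), the first genotype difference (Hsph1 −0.61, Hsp90aa1 −0.59, Hsp90ab1 −0.67) and the second (Hsp90aa1 0.41, Hspd1 0.48, Hspe1 0.19).

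Leaving out 1 library at a time gave 0 to 0 called chaperones in KO against WT GV oocytes, 4 to 7 in 1-cell and 1 to 5 in 2-cell embryos. It gave 8 to 8 in WT 1-cell against WT GV, 3 to 5 in WT 2-cell against WT 1-cell, 7 to 8 in each KO step, and 2 to 5 and 5 to 6 in the genotype differences, the lone library of an arm being assumed to vary like the others. The lowest first genotype difference, 2, came without WT 1-cell replicate 2. In KO against WT GV oocytes, where none was called, signs turned for Hspa5 (range −0.03 to 0.12), Hsp90ab1 (−0.09 to 0.07) and Hspd1 (−0.26 to 0.05), in each case without 1 of the 4 oocyte libraries.

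Over all genes, calls in KO against WT numbered 183 in GV oocytes as deposited, 290 before the factor, 2 with quantile normalization, 2 with the minimum mean and 14 without the trend. For 1-cell embryos the figures were 5961 as deposited, 1086 before the factor and 3301 with quantile normalization. For 2-cell embryos these scales gave 2211, 3200 and 4874. Leaving out 1 library moved them to between 81 (without either WT 1-cell library) and 793 (without KO GV replicate 1) in GV oocytes. It moved the 1-cell count to as few as 3433 without WT 1-cell replicate 2 and 3917 without KO 1-cell replicate 2, and the 2-cell count to 1359 without WT 2-cell replicate 2 and 1440 without KO 2-cell replicate 2.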
